A study of Homo sapiens with 6 samples.

Results

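The genes described here are 43 genes of DNA damage signalling and repair, chosen by name from the 34644 gene names of the deposited tables for their part in sensing double-strand breaks, homologous recombination, end joining, the Fanconi pathway, and excision and mismatch repair. They were measured by bulk RNA-seq in HK-2 cells, a line of human proximal tubular cells immortalised with papillomavirus genes, whose products inactivate p53 and the retinoblastoma protein. All 6 libraries came from cells that had received a lentivirus, had been selected with puromycin and were collected on day 7 after a single X-ray dose of 8 Gy. The 3 libraries named IR+NC-LV carried a negative control lentivirus, and the 3 named IR+PR-LV carried a lentivirus for overexpression of PRDM16, a transcriptional regulator of the PRDM family. Unirradiated cells were not analysed here, so the comparison is between irradiated cells with and without the PRDM16 virus and says nothing of the response to irradiation itself. In what follows IR+NC-LV is called control cells and IR+PR-LV is called PRDM16 cells. The labels number the libraries in each group but do not say whether they came from separate cultures, so p-values measure the spread between these libraries, which may be technical.

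A double-strand break is recognised by a complex that holds the ends together and recruits the kinase ATM, while single-stranded DNA at stalled forks recruits ATR. Both kinases pass the signal to the checkpoint kinases and to scaffold proteins on the chromatin beside the break. The break is then either joined directly, which the Ku heterodimer starts and which works throughout the cell cycle, or cut back and copied from the sister chromatid by homologous recombination, which is used in S and G2 phase. Crosslinks, damaged bases, bulky lesions and mismatches each have their own repair pathway. Much of this machinery is regulated on the protein, by phosphorylation and ubiquitin, and the mRNA levels reported here do not measure that.

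The library totals ranged from 13407074 to 28540041 counts, and a count of 0 in a library allows a level of up to 0.105 to 0.224 CPM (the unit of a gene's share of the library's counts, scaled by TMM factors so that a gene can be compared between libraries), an allowance for counting error only. PRDM16 had 2, 0 and 1 counts in control cells and 14, 10 and 8 in PRDM16 cells. Its counts per total were 8.51 times as high in PRDM16 cells (exact 95% interval 2.66 to 43.4, counting error only), and it was too low for the test across genes. The labelled cell type was checked against 12 proximal tubule markers, of which 9 were high enough to test. The epithelial genes KRT18 and PAX8 were at 632 and 138 TPM (a level per exon length, as deposited), whereas the transporter genes LRP2 and SLC22A6 had 3 and 1 counts in all libraries together. Of 5 immune markers, MS4A1 had no count and PTPRC had 10, although CD68 stood at 177 TPM (log2 fold change of PRDM16 cells over control cells -0.22, adjusted p = 0.405 by edgeR). None of the 6 distal tubule or 5 endothelial markers reached the filter, and among 6 fibroblast markers LUM was at 123 TPM and COL1A1 at 10.5 TPM, while COL3A1, PDGFRB, DCN and COL1A2 were at 0.588, 0.788, 0.0852 and 0.0321 TPM.

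All 43 genes passed the filter on low counts. Their levels spanned a wide range, from XRCC6, which encodes the Ku70 subunit of Ku, at 692 TPM to MDC1, the scaffold bound to phosphorylated chromatin, at 0.715 TPM, each a mean of the 6 libraries. The median gene was at 28.7 TPM, against 16.3 TPM for all 15340 entries tested. The 5 highest were XRCC6, its partner XRCC5 at 490.1 TPM, PARP1, the break sensor that makes poly(ADP-ribose), at 288 TPM, PRKDC, the catalytic subunit of DNA-dependent protein kinase, at 168 TPM and MSH6, a mismatch recognition protein, at 120.0 TPM. Together the 43 genes made up between 0.278% and 0.305% of the TPM of a library.

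**Figure D1:**
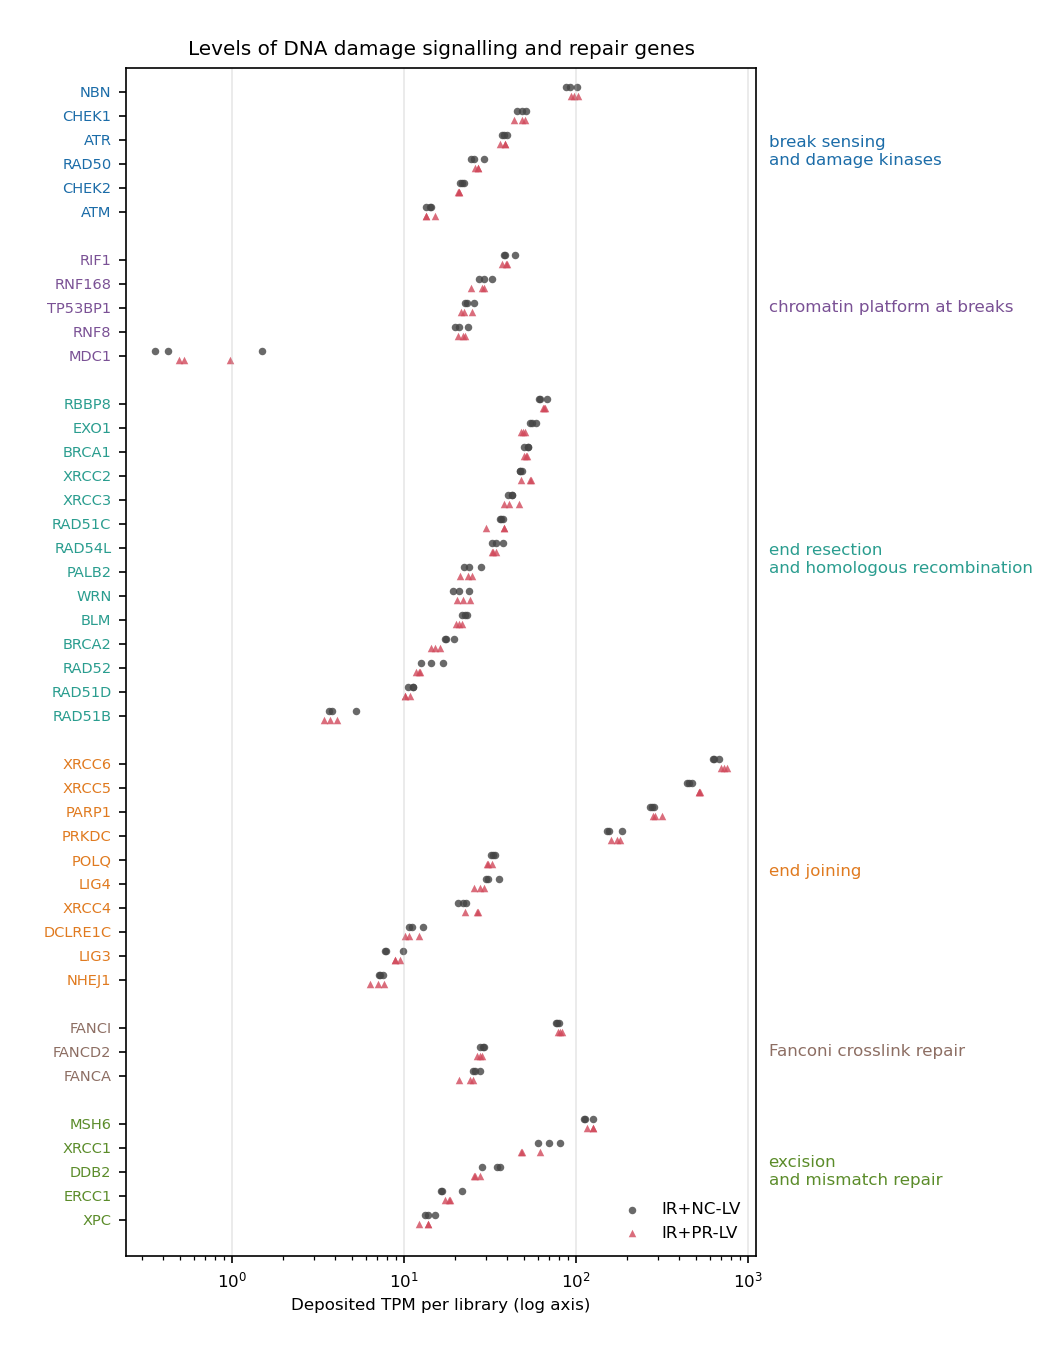
Deposited TPM of each gene (log axis) in the 3 control (IR+NC-LV) and the 3 PRDM16 (IR+PR-LV) libraries, 1 point a library, ordered by role and level. End joining holds the highest levels (XRCC6 at 692 TPM and XRCC5 at 490 TPM), and the points of the 2 groups lie close together beside the range from MDC1 at 0.715 TPM to XRCC6.

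Levels within a role differed far more than levels between the groups. The median coefficient of variation of a gene was 4.82% among the control libraries and 5.04% among the PRDM16 libraries. By the quasi-likelihood test of edgeR, 0 of the 43 genes passed an adjusted p of 0.05, where 10 of the 15340 entries tested did (0.0652%). DESeq2 called 2 of the 43, XRCC5 and XRCC6, while it called 163 of the 15650 entries with an adjusted p (1.04%). At an unadjusted p under 0.05 in edgeR stood 9 of the 43 genes, against 10.5% of all entries. Of these 9, XRCC5, XRCC6 and XRCC4 were higher in PRDM16 cells (4.55% of all entries were), and XRCC1, BRCA2, DDB2, EXO1, LIG4 and RAD52 were lower (5.97% of all entries were). The values of the groups did not overlap for 12 of the 43, compared with 17% of all entries. Of these 12, XRCC5, XRCC6, PARP1, NBN, MSH6, FANCI and RBBP8 had all PRDM16 libraries above all control libraries (7.46% of all entries), and EXO1, BRCA2, RAD52, LIG4 and DDB2 had them below (9.54% of all entries). Since 42 of the 43 genes had a mean over 10 CPM, the same shares were taken over the 9817 entries with at least 10 CPM. An adjusted p of 0.05 was passed by 0.0509% of these and an unadjusted one by 10.4% (5.18% higher and 5.25% lower), and 17.2% did not overlap (8.8% higher and 8.39% lower). The median log2 fold change of the 43 was -0.016, with 20 genes above 0 and 23 below, beside a median of 0.0044 over all entries, and it was 0.015 with GC and length trends removed. The split of the 9 genes depended on the fit. DESeq2 put 5 genes higher and 3 lower at an unadjusted p under 0.05 (2.53% and 2.19% of the 28825 entries it fitted), and with GC and length trends removed it was 7 higher and 6 lower (8.68% and 7.51% of entries). With a library left out, 4 genes were at an unadjusted p under 0.05 without PRDM16 replicate 2 (6.06% of entries) and 5 without control replicate 2 (10.4% of entries). The groups of 20 genes did not overlap without control replicate 3 (27.7% of entries) or without PRDM16 replicate 1 (36.9% of entries). Across the fits with a library left out, this share of entries ranged from 22.2% (without control replicate 1) to 36.9%. What sets the fits apart was not tested. Since bulk RNA was measured, fewer cells expressing a gene and less RNA per cell cannot be told apart.

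The precision was enough to bound most of these differences. The 95% interval of a gene's log2 fold change had a median width of 0.169 to either side. For 40 of the 43 genes the whole interval lay within 0.5 log2 units of 0, and without MDC1 no interval reached below -0.635 or above 0.482. The largest estimates were -0.37 for XRCC1 and 0.25 for XRCC4.

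**Figure D2:**
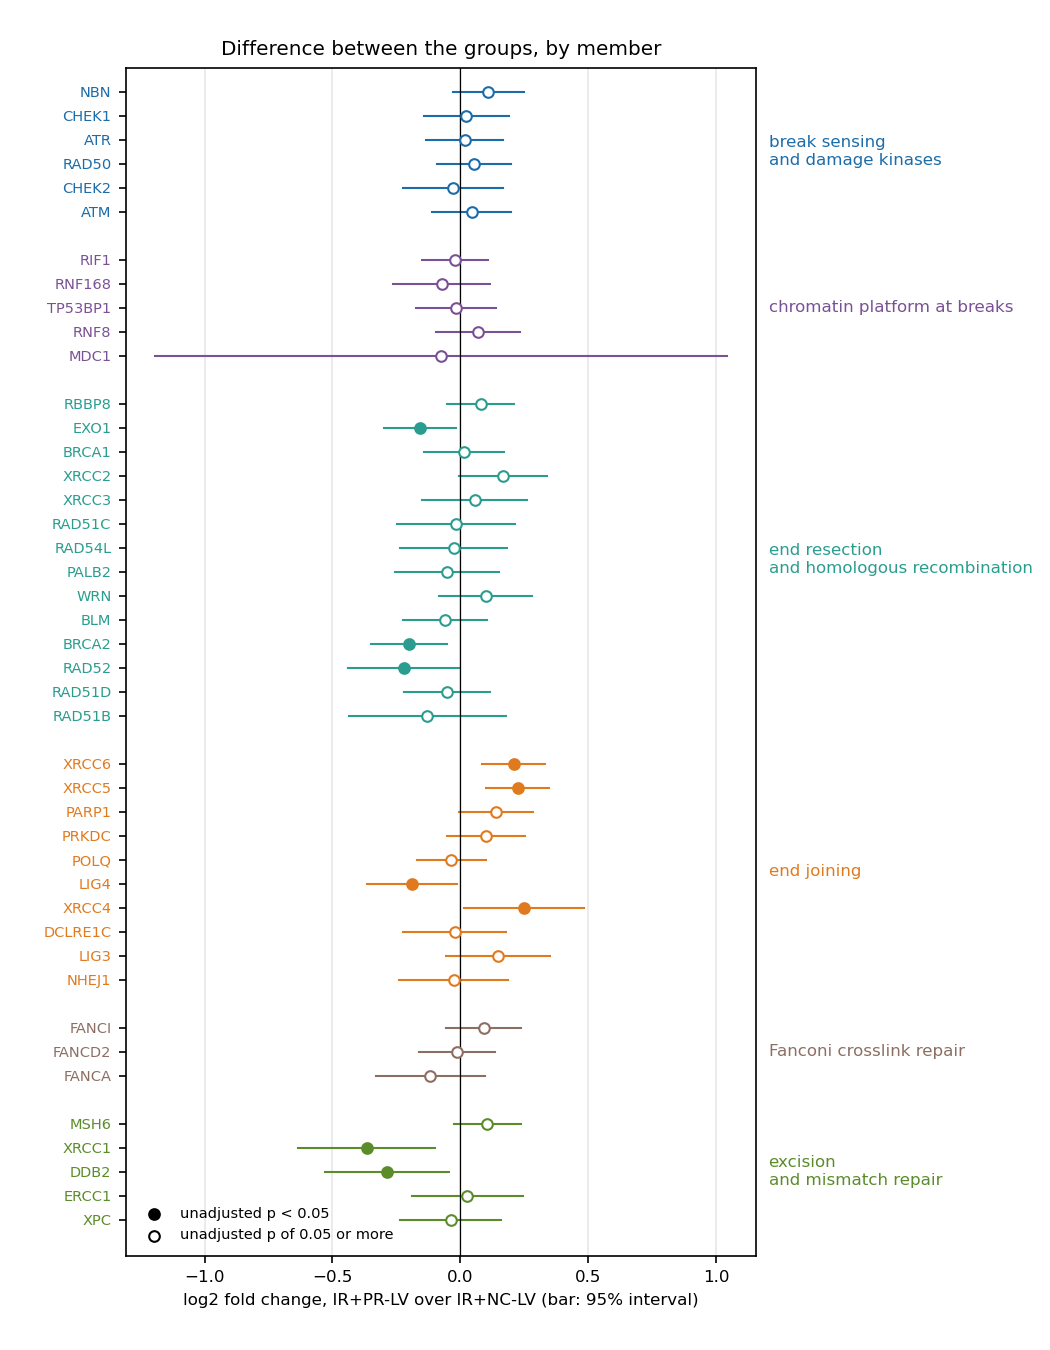
Log2 fold change of PRDM16 cells over control cells for each of the 43 genes from edgeR, with bars for the 95% interval, ordered by role. Estimates run from -0.37 (XRCC1) to 0.25 (XRCC4), and no gene passed an adjusted p of 0.05. The interval of MDC1, -1.20 to 1.04, is the widest.

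The sequence before the transcription start is shown for those of the 9 genes at an unadjusted p under 0.05 whose RefSeq window ends at the start given in the files; these are promoters of genes with the smallest p among the 43. The windows are the 250 bases upstream of the start, from RefSeq on GRCh38.p14, written 5′ to 3′ on the gene's strand. XRCC6 lies at chr22:41621045-41621294 on the plus strand, BRCA2 at chr13:32315258-32315507 on the plus strand, LIG4 at chr13:108218350-108218599 on the minus strand and XRCC1 at chr19:43575528-43575777 on the minus strand. Capitals mark the letters CCAAT (the core bound by NF-Y), TTTGAA or TTCGAA (the cell cycle homology region) and TTTCCCGC, TTTCGCGC, TTTGCCGC or TTTGGCGC (an E2F site) on either strand.
XRCC6: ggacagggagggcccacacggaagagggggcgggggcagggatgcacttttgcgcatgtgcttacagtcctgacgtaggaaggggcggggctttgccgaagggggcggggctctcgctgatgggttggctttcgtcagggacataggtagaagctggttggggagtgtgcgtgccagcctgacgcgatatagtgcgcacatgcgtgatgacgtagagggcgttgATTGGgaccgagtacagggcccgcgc
BRCA2: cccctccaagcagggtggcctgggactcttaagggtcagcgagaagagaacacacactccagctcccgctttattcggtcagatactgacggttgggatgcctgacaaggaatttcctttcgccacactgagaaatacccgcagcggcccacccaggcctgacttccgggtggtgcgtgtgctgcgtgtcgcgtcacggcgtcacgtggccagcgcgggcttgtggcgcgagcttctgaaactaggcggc
LIG4: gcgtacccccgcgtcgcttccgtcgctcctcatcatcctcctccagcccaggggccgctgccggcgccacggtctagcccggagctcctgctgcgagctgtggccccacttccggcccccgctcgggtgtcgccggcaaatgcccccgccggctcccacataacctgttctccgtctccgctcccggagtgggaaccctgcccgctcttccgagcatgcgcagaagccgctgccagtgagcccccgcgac
XRCC1: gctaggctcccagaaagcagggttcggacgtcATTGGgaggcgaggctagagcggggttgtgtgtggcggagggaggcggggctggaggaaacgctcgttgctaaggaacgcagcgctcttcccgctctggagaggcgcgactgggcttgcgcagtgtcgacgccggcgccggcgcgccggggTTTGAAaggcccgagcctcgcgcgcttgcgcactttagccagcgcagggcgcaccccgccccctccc
XRCC6 held CCAAT on the opposite strand, XRCC1 held CCAAT on the opposite strand and TTTGAA, and no such letters stood in the windows of BRCA2 and LIG4. The RefSeq table held 38 of the 43 genes. Many of these have a window that does not end at the start given in the files. They are ATM, ATR, BRCA1, CHEK1, CHEK2, DDB2, EXO1, LIG3, MDC1, PALB2, RAD51B, RAD51C, RAD51D, RAD52, RBBP8, XRCC3 and XRCC4. For BRCA1 the window is chr17:43170328-43170577, while the start given in the files is at 43125364. All 38 genes were counted, so the shares that follow include these windows. CCAAT stood in the windows of 17 of them (44.7%), compared with 33.0% of 27305 promoters of the same length, the cell cycle homology letters in 5 (13.2%, against 14.6%) and the E2F letters in 2 (5.26%, against 2.79%). Of 20 replication and mitosis genes in the same table, 85% held CCAAT and 40% held the E2F letters.

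End joining held the highest levels and the differences with the smallest p. Of its 10 genes, 3 were at an unadjusted p under 0.05 with a higher level in PRDM16 cells (4.55% of all entries) and 1 with a lower level (5.97% of all entries), and the median log2 fold change was 0.12. The summed level of the 10 genes was 2102, 2130 and 2166 CPM in control cells and 2440, 2311 and 2326 CPM in PRDM16 cells. The groups did not overlap in this sum, to which XRCC5, XRCC6, PARP1 and PRKDC gave most of the counts. These 4 genes had a mean over 300 CPM, a level at which 79.3% of entries had a log2 fold change above 0. Of the 10 genes, 6 had a log2 fold change above 0 and 4 below. The sum was not tested.

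XRCC5 (chr2:216109348-216206293, plus strand, 3379 exon bases) and XRCC6 (chr22:41621295-41664041, plus strand, 2187 exon bases) encode Ku80 and Ku70, which form the ring that slides onto a broken end. XRCC5 was at 461, 485 and 461 CPM in control cells and at 546, 558 and 538 CPM in PRDM16 cells. All 3 PRDM16 values lay above all 3 control values, with a log2 fold change of 0.22 (SE 0.054, 95% interval 0.10 to 0.35, adjusted p = 0.216 by edgeR). XRCC6 was at 430.0, 432 and 429 CPM in control cells and at 519, 483 and 491 CPM in PRDM16 cells. The control libraries were within 3 CPM of each other, and the log2 fold change was 0.21 (SE 0.055, 95% interval 0.085 to 0.33, adjusted p = 0.260 by edgeR). DESeq2 gave adjusted p-values of 0.0219 for XRCC5 and 0.0397 for XRCC6. Neither gene shares exon bases with a gene on either strand in the files' annotation.

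PARP1, which senses breaks and also acts in the alternative end joining route, was at 340.3, 336 and 325 CPM in control cells and at 396, 362 and 346 CPM in PRDM16 cells. Its groups did not overlap, although the lowest PRDM16 library lay close to the highest control library (log2 fold change 0.14, SE 0.065, adjusted p = 0.491 by edgeR). PRKDC, the kinase that Ku recruits, was at 644, 645 and 718 CPM in control cells and at 756, 679 and 715 CPM in PRDM16 cells, where replicate 3 of control cells lay above 2 of the 3 PRDM16 libraries (log2 fold change 0.10, SE 0.068). These 4 genes were the ones among the 43 with a mean over 300 CPM. Of the 576 entries with a mean of at least 300 CPM, 79.3% had a log2 fold change above 0, with a median of 0.074, whereas 51.1% of all entries did. The part of this shift with level in the values of the 4 genes was not tested.

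**Figure D3:**
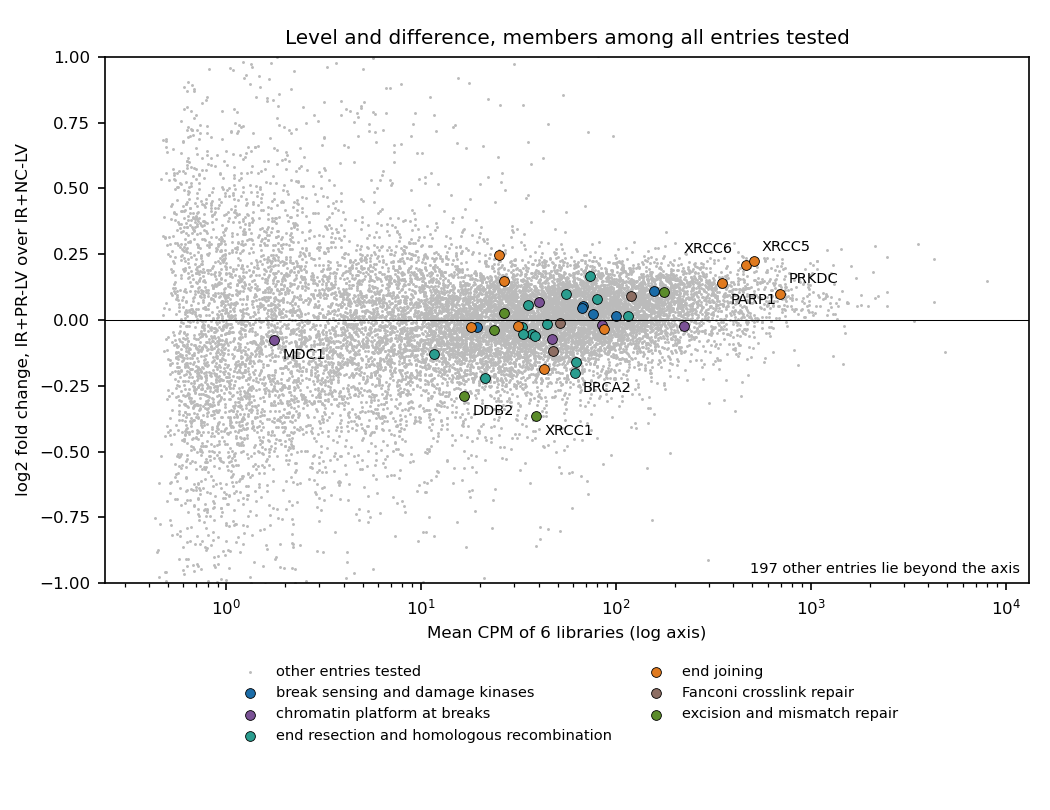
Log2 fold change of PRDM16 cells over control cells against the mean CPM of the 6 libraries (log axis) for the 43 genes, coloured by role, over all other entries tested in grey. XRCC5, XRCC6, PARP1 and PRKDC lie at the high end, where most entries sit above 0 (79.3% of the entries with at least 300 CPM), and XRCC1 and DDB2 lie lowest among the 43.

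XRCC4 and LIG4 encode the scaffold and the ligase that seal the joined ends. XRCC4 was at 24.3, 23.7 and 20.4 CPM in control cells and at 24.2, 29.1 and 27.9 CPM in PRDM16 cells. Replicate 1 of PRDM16 cells lay within the control range and the other 2 above it, with a log2 fold change of 0.25 (SE 0.10, adjusted p = 0.448 by edgeR). LIG4 was at 43.3, 45.1 and 47.9 CPM in control cells and at 37.2, 40.4 and 42.0 CPM in PRDM16 cells, without overlap of the groups (log2 fold change -0.19, SE 0.078, adjusted p = 0.447 by edgeR). The least abundant gene of end joining was NHEJ1, the XLF factor that bridges the ends, at 18.4, 18.4 and 17.8 CPM in control cells and 19.6, 16.4 and 17.7 CPM in PRDM16 cells, with overlapping groups and a log2 fold change of -0.026. The nuclease gene DCLRE1C (Artemis) was at 11.3 TPM with a log2 fold change of -0.022. POLQ, the polymerase of microhomology-mediated joining, was at 32.2 TPM and had a log2 fold change of -0.035, and LIG3, a ligase of alternative joining and base excision repair, was at 8.82 TPM with 0.15. Exons of RFFL on the opposite strand cover 38.1% of the exon bases of LIG3, and the sources used here do not state whether counting used the strand.

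Among the 14 genes of end resection and homologous recombination, 3 were at an unadjusted p under 0.05, each lower in PRDM16 cells (5.97% of all entries), and the median log2 fold change was -0.040. In DESeq2, BRCA2 was the one of these 3 at that threshold, and XRCC2, with a higher level, joined it. BRCA2, which acts on resected DNA in homologous recombination, was at 64.4, 64.7 and 67.2 CPM in control cells and at 53.9, 57.3 and 59.5 CPM in PRDM16 cells. Every PRDM16 library lay below every control library, with a log2 fold change of -0.20 (SE 0.066, 95% interval -0.35 to -0.051, adjusted p = 0.372 by edgeR). EXO1, a nuclease that extends the resected end, was at 64.3, 67.3 and 65.1 CPM in control cells and at 60.4, 58.0 and 57.8 CPM in PRDM16 cells. Its groups did not overlap either (log2 fold change -0.16, SE 0.062, adjusted p = 0.422 by edgeR). RAD52, which anneals complementary strands, was at 23.01, 20.5 and 25.3 CPM in control cells and at 20.1, 19.3 and 19.5 CPM in PRDM16 cells. The gap between its groups was smaller than the spread of the control libraries (log2 fold change -0.22, SE 0.10, adjusted p = 0.468 by edgeR), and 9.62% of its exon bases lie opposite exons of ERC1 and WNK1.

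RBBP8, which encodes CtIP and starts resection, was the most abundant gene of this role by TPM (64.6 TPM). It was at 76.7, 77.6 and 79.1 CPM in control cells and at 80.9, 83.0 and 82.6 CPM in PRDM16 cells, with a log2 fold change of 0.079 (SE 0.058, adjusted p = 0.684 by edgeR) and no overlap. BRCA1, which favours resection over end joining, was at 118, 119.8 and 104 CPM in control cells and at 117, 117 and 112 CPM in PRDM16 cells. The groups overlapped and the log2 fold change was 0.014 (SE 0.069, 95% interval -0.14 to 0.17). PALB2, the bridge between BRCA1 and BRCA2, was at 24.1 TPM with a log2 fold change of -0.052. The helicase genes BLM and WRN were at 21.8 and 21.9 TPM, with log2 fold changes of -0.060 and 0.10. RAD54L, a motor protein of strand invasion, was at 34.2 TPM with a log2 fold change of -0.027.

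XRCC2, XRCC3, RAD51B, RAD51C and RAD51D encode proteins that form complexes with each other in homologous recombination. XRCC2 was at 50.1 TPM, XRCC3, RAD51C and RAD51D were at 42.0, 36.3 and 10.7 TPM, and RAD51B was at 4.0 TPM. None of them was at an unadjusted p under 0.05 in edgeR as reported, although XRCC2 was in 5 of the 14 alternative fits. RAD52 was in 4 of these fits, EXO1 in 8 and BRCA2 in all 14. XRCC2 had a log2 fold change of 0.17 (SE 0.076, adjusted p = 0.482 by edgeR). RAD51B was at 11.3, 10.97 and 14.3 CPM in control cells and at 10.2, 12.2 and 10.8 CPM in PRDM16 cells, and its 95% interval, -0.44 to 0.18, was the widest after that of MDC1. XRCC3, RAD51C and RAD51D had log2 fold changes of 0.055, -0.016 and -0.053, and 4.17% of the exon bases of RAD51D are shared with a readthrough entry on the same strand.

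**Figure D4:**
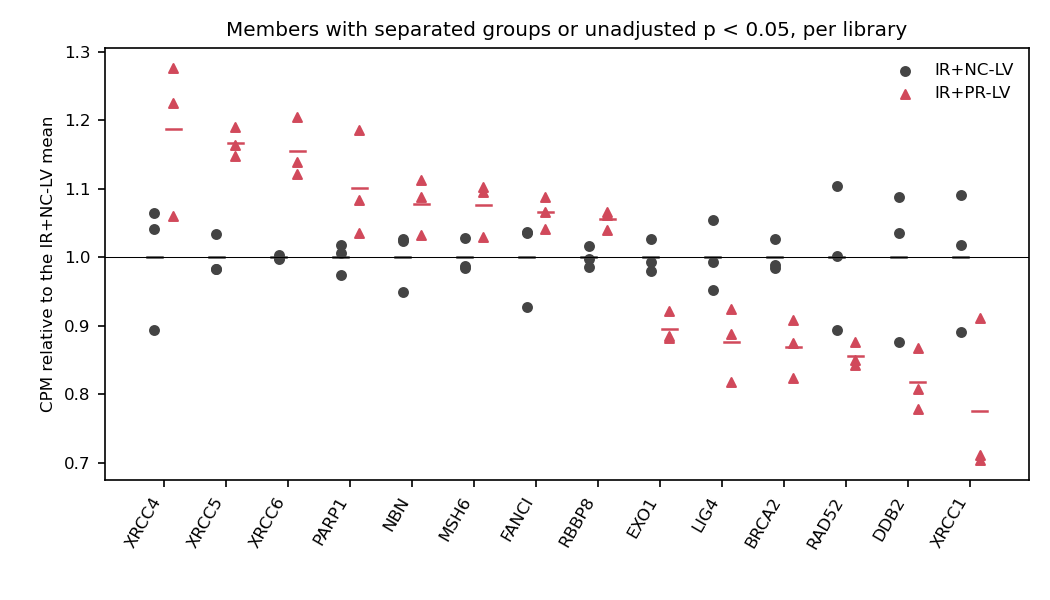
CPM of each library relative to the control mean for the genes whose groups did not overlap or whose unadjusted p was under 0.05, with control (IR+NC-LV) and PRDM16 (IR+PR-LV) libraries as separate points. XRCC5 and XRCC6 show narrow groups that lie apart, whereas XRCC1 and XRCC4 show wide groups that overlap.

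In the 6 genes of break sensing and the damage kinases, no gene was at an unadjusted p under 0.05 in edgeR, and the median log2 fold change was 0.033. NBN, the subunit of the break-sensing complex that contacts ATM, was the most abundant by TPM (96.2 TPM). It was at 142, 153 and 154 CPM in control cells and at 155, 163 and 167 CPM in PRDM16 cells, without overlap and with a log2 fold change of 0.11 (SE 0.062, adjusted p = 0.575 by edgeR). Exons of OSGIN2 lie opposite 43.2% of the exon bases of NBN. ATM, at 14.1 TPM the least abundant of the role, was at 67.3, 65.0 and 63.8 CPM in control cells and at 65.0, 65.0 and 72.2 CPM in PRDM16 cells, with a log2 fold change of 0.044 (95% interval -0.11 to 0.20). ATR was at 104, 99.8 and 93.1 CPM in control cells and at 95.8, 103 and 101 CPM in PRDM16 cells, with a log2 fold change of 0.017 (95% interval -0.13 to 0.17). CHEK1, the effector kinase of ATR, was at 71.7, 78.3 and 76.2 CPM in control cells and at 70.4, 78.9 and 80.3 CPM in PRDM16 cells, with a log2 fold change of 0.023 (95% interval -0.14 to 0.19). The groups overlapped for ATM, ATR and CHEK1, and none of these 3 intervals reached beyond 0.20 in either direction. CHEK2, the effector kinase of ATM, was at 21.4 TPM with a log2 fold change of -0.028, and RAD50, the subunit that tethers the ends, was at 26.7 TPM with 0.052.

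The 5 genes of the chromatin platform beside a break had overlapping groups throughout, and their median log2 fold change was -0.022. RIF1, which works with 53BP1 to limit resection, was the most abundant, at 216, 223 and 234 CPM in control cells and 224, 215 and 223 CPM in PRDM16 cells (log2 fold change -0.022, 95% interval -0.15 to 0.11). TP53BP1, which encodes 53BP1, was at 23.4 TPM with a log2 fold change of -0.017, and 26.2% of its exon bases lie opposite TUBGCP4. The ubiquitin ligase genes RNF8 and RNF168, which mark the chromatin for 53BP1, were at 21.7 and 28.7 TPM, with log2 fold changes of 0.068 and -0.073.

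MDC1 is listed 8 times, once on chromosome 6 and 7 times on alternate scaffolds of the same region. The chromosome 6 entry had 15, 23 and 49 counts in control cells and 21, 38 and 45 in PRDM16 cells. Summed over the 8 entries, MDC1 had 71, 57 and 117 counts in control cells and 92, 146 and 106 in PRDM16 cells, or 4.23, 2.71 and 8.42 CPM and 5.48, 5.22 and 5.76 CPM. The chromosome 6 entry thus held less than the sum in every library, and near-identical copies can split or lose reads, so the level of MDC1 is uncertain. Its log2 fold change was -0.076 for the chromosome 6 entry (95% interval -1.20 to 1.04) and 0.13 for the sum, and the groups overlapped in both.

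The 3 Fanconi genes, which act on DNA crosslinks, had a median log2 fold change of -0.013, and none was at an unadjusted p under 0.05 in edgeR. FANCI, at 79.6 TPM, was at 119.9, 120.0 and 107 CPM in control cells and at 123, 121 and 126 CPM in PRDM16 cells, and its groups did not overlap (log2 fold change 0.091, SE 0.065, adjusted p = 0.673 by edgeR). FANCD2, which pairs with FANCI, was at 28.2 TPM with a log2 fold change of -0.013. FANCA, a subunit of the ubiquitin ligase that modifies both, was at 52.8, 48.8 and 46.1 CPM in control cells and at 49.0, 47.3 and 39.8 CPM in PRDM16 cells, with overlapping groups, a log2 fold change of -0.12 and 22.9% of its exon bases opposite ZNF276.

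In excision and mismatch repair, 2 of the 5 genes were at an unadjusted p under 0.05, both lower in PRDM16 cells (5.97% of all entries), and the median log2 fold change was -0.039. XRCC1, the scaffold of single-strand break repair, was at 44.4, 38.8 and 47.5 CPM in control cells and at 39.7, 31.0 and 30.7 CPM in PRDM16 cells. Replicate 1 of PRDM16 cells lay above replicate 2 of control cells, so that the groups overlapped despite the largest difference among the 43 genes (log2 fold change -0.37, SE 0.12, 95% interval -0.63 to -0.10, adjusted p = 0.362 by edgeR). DDB2, which recognises ultraviolet lesions and is a target of p53, was at 16.04, 19.9 and 18.9 CPM in control cells and at 14.8, 15.9 and 14.2 CPM in PRDM16 cells. The groups did not overlap, and the gap between them was small (log2 fold change -0.29, SE 0.11, adjusted p = 0.401 by edgeR). MSH6 was at 167, 166 and 174 CPM in control cells and at 186, 174 and 185 CPM in PRDM16 cells, without overlap (log2 fold change 0.11, SE 0.058, adjusted p = 0.561 by edgeR). XPC, the damage sensor of nucleotide excision repair and likewise a p53 target, was at 23.1, 24.5 and 24.4 CPM in control cells and at 24.3, 24.5 and 21.3 CPM in PRDM16 cells, with overlap and a log2 fold change of -0.039. ERCC1, a subunit of the nuclease that cuts beside the lesion, was at 18.2 TPM with a log2 fold change of 0.027, and 33.5% of its exon bases lie opposite POLR1G.

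A ratio between partner genes within a library does not depend on how libraries are scaled. The groups of 5 of 12 such TPM ratios did not overlap. The pairs include genes at an unadjusted p under 0.05 (LIG4, BRCA2, DDB2 and XRCC1 among them), and no share was computed for other pairs, so nothing is read from the count, and the values are a description without a test. XRCC4 over LIG4 was 0.763, 0.716 and 0.578 in control cells and 0.886, 0.981 and 0.905 in PRDM16 cells (0.686 ± 0.096 and 0.924 ± 0.051, SD, n = 3 each). XRCC1 over LIG3 was 8.29 ± 0.706 in control cells and 5.79 ± 0.616 in PRDM16 cells (SD, n = 3 each). BRCA2 over PALB2 was 0.731 ± 0.047 and 0.659 ± 0.019. Of these, XRCC1 over LIG3 and BRCA2 over PALB2 were lower in all PRDM16 libraries, while XRCC4 over LIG4 was higher. With a partner outside the 43 genes, BRCA1 over BARD1 was 1.67 ± 0.11 in control cells and 1.97 ± 0.11 in PRDM16 cells, and DDB1 over DDB2 was 4.22 ± 0.465 and 5.47 ± 0.391. The ratio of the Ku subunits, XRCC6 over XRCC5, was 1.42 ± 0.037 and 1.41 ± 0.066, with overlapping groups. The ratios of NBN to RAD50, ATR to ATM, CHEK1 to CHEK2, RIF1 to TP53BP1, FANCI to FANCD2 and PRKDC to XRCC5 also overlapped.

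**Figure D5:**
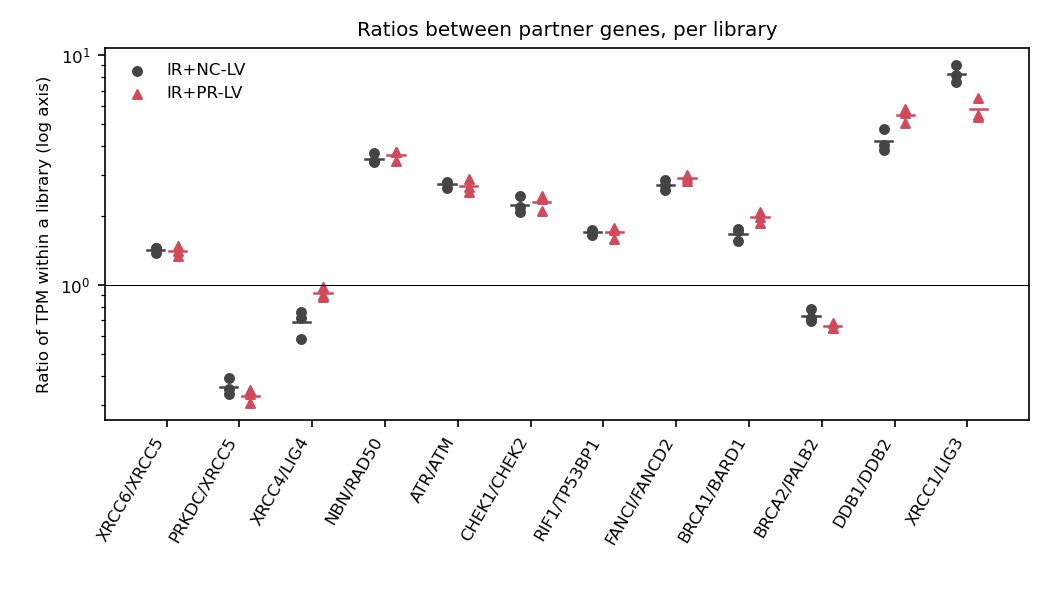
Ratio of the TPM of partner genes within each library (log axis) for 12 pairs, with control (IR+NC-LV) and PRDM16 (IR+PR-LV) libraries as separate points. XRCC4/LIG4, BRCA1/BARD1, BRCA2/PALB2, DDB1/DDB2 and XRCC1/LIG3 have groups that do not overlap, and XRCC6/XRCC5 lies near 1.4 in both groups.

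Other repair genes were read beside the 43. Of 91 further genes of checkpoint signalling, recombination, end joining, the Fanconi pathway, excision and mismatch repair and translesion synthesis, 90 were tested (ATRIP was too low), and edgeR and DESeq2 each called 0. At an unadjusted p under 0.05 stood 8 of them (8.89%, against 10.5% of all entries), 2 higher and 6 lower in PRDM16 cells, so the share was no larger than the background. The median log2 fold change of the 90 was -0.0046. The higher ones were HLTF, a helicase-like ligase of damage tolerance (log2 fold change 0.22), and SHLD2, a subunit of shieldin (log2 fold change 0.16). The lower ones included UIMC1 (-0.25) and BARD1 (-0.22), which belong to complexes of BRCA1, HUS1 (-0.30), a subunit of a checkpoint clamp, and PPM1D (-0.23), a phosphatase that ends the damage signal. The remaining lower ones were REV3L (-0.22), a translesion polymerase subunit, and ERCC5 (-0.64), an excision nuclease at 2.60 TPM.

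Several of the 43 genes are expressed mainly in S and G2 phase, so replication and mitosis genes were read beside them. The 12 such genes among the 43 were BRCA1, BRCA2, CHEK1, RAD54L, EXO1, BLM, FANCA, FANCD2, FANCI, POLQ, XRCC2 and MSH6. Their median log2 fold change was -0.020, and 2 of them, BRCA2 and EXO1, were at an unadjusted p under 0.05 in edgeR. Both were lower in PRDM16 cells. Of all entries, 10.5% were at that threshold, 4.55% higher and 5.97% lower. Of 23 replication and mitosis genes, edgeR and DESeq2 each called 0, PCNA was at an unadjusted p under 0.05 (log2 fold change 0.19), and the median was 0.015. The summed level of the 23 genes was 4871, 5003 and 4547 CPM in control cells and 4864, 5039 and 4915 CPM in PRDM16 cells. The groups overlapped in this sum.

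The 43 genes lie on 18 chromosomes, and all of their positions overlap the RefSeq gene of that name on GRCh38.p14. Their median exon length of 5347 bases compares with 4154 for all entries tested, and their median span was 54.1 kb, compared with 28.2 kb. Their median GC content of 43.5% was below the 48.2% of the entries with a GC value, which 92.3% of those tested had. GC content was that of the longest GENCODE transcript of the gene name. Exons of a gene on the opposite strand overlap those of 18 of the 43, by over 10% of the exon bases in 7 (NBN, LIG3, ERCC1, TP53BP1, FANCA, RAD54L and CHEK1).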

How the data were processed

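Bulk RNA-seq libraries (poly(A) RNA, NEBNext Ultra kit, MGI platform, paired reads) of irradiated HK-2 cells were grouped by the sample titles, 3 per group. The authors deposited raw read counts, 1 count per gene and library. The deposited TPM and FPKM values were made by the authors from these counts and the exon lengths, and both could be recomputed from them here. The submitters' processing notes name CASAVA, featureCounts 2.0.1, DESeq2 1.16.1 and hg38; the aligner, the annotation release and the strand setting of the counting are not given in the sources used here.

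Each file lists 38648 entries, since a gene name can have copies on alternate scaffolds. A gene with several entries was read from its entry on an assembled chromosome, and otherwise from the entry with the most counts. The groups were compared with edgeR 4.0.16 in R 4.3.3 (filterByExpr, TMM factors from 0.981 to 1.04, quasi-likelihood test without covariates), with Benjamini-Hochberg adjustment over the 15340 entries tested and a threshold of 0.05. Standard errors followed from the F statistic, and 95% intervals from the matching t distribution, which is approximate. The biological coefficient of variation was 0.106. The test was tried on simulated data with known changes. Levels of different genes were compared in deposited TPM, and levels of a gene between libraries in CPM.

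The 43 genes, their roles and the further lists were chosen with earlier results of these data known, so no test was run on a list, and counts are set beside the share of all entries. Values in every library were given for genes past a threshold, at an unadjusted p under 0.05 or with groups that did not overlap, for the highest and the lowest TPM of each role, and for ATM, ATR, CHEK1, BRCA1, PRKDC and PARP1. In the further lists, genes were named where they passed a threshold or stood at an unadjusted p under 0.05. The alternatives were RLE and upper-quartile factors, DESeq2 1.42.0, other filters on low counts, the replicate number as a block, counts summed over entries of a name, and each library left out. An edgeR fit with GC and length trends removed by loess (span 0.5) was added after the data were seen. Promoter sequences came from RefSeq on GRCh38.p14 (250 bases upstream of the start).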

Additional observations from a re-analysis of the deposited data

How the results depend on the processing

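In 14 alternative fits, edgeR and its variants called 0 of the 43 genes, and DESeq2 called 2 (XRCC5 and XRCC6). The entries called among all tested numbered 10 as reported, 163 with DESeq2, 342 without a filter beyond 1 count, 45 with GC and length trends removed and 58 at an adjusted p under 0.1, and between 1 (without control replicate 1 or PRDM16 replicate 3) and 28 (without control replicate 2) with a library left out. BRCA2, XRCC5 and XRCC6 were at an unadjusted p under 0.05 in all 14 fits, and all 9 genes named at that threshold had the same sign in each. XRCC1 was at it in 13 fits, DDB2 in 11, XRCC4 in 10, EXO1 and LIG4 in 8 and RAD52 in 4. Genes at that threshold numbered between 4 (without PRDM16 replicate 2; 5 without control replicate 2) and 9 with a library left out, and genes whose groups did not overlap between 12 and 20 (without control replicate 3 or PRDM16 replicate 1), as the share of all entries without overlap went from 17% to between 22.2% and 36.9%. The fits with a library left out hold fewer libraries. The cause of these shifts was not tested. The median log2 fold change of the 43 genes was 0.015 with GC and length trends removed and ranged from -0.018 to 0.0071 with a library left out. Among other repair genes, 18 were at an unadjusted p under 0.05 with GC and length trends removed, and between 5 and 14 with a library left out. Among replication and mitosis genes, 2 were with the trends removed, and between 0 and 4 with a library left out. Of all entries, 16.2% were at that threshold with the trends removed, and between 6.06% and 16.4% with a library left out.

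The labels do not say whether libraries with the same replicate number are paired. The correlations of same-numbered libraries' deviations were -0.013, 0.060 and 0.077. Those of differently numbered libraries ranged from -0.11 to 0.072, so these values do not settle it. With the replicate number as a block, 8 of the 43 genes were at an unadjusted p under 0.05, against 10.7% of all entries. In that fit 3 entries were called in all, 0 of them among the 43 genes, and MDC1 had a log2 fold change of 0.0084.

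Of the 43 genes, 18 changed sign in at least 1 alternative fit. MDC1 aside, the one furthest from 0 as reported was RAD51B at -0.13. MDC1 had 0.13 with the counts of its 8 entries summed, and TP53BP1 and RIF1 had 0.015 and 0.022 with GC and length trends removed. With a library left out, log2 fold changes ranged from -0.0076 to 0.070 for ATM, from -0.022 to 0.050 for ATR, from -0.017 to 0.079 for CHEK1, from -0.080 to 0.014 for CHEK2, from -0.43 to 0.74 for MDC1, from -0.075 to 0.018 for TP53BP1, from -0.052 to 0.011 for RIF1, from -0.043 to 0.050 for BRCA1, from -0.12 to 0.0071 for PALB2, from -0.21 to 0.00057 for RAD51B, from -0.078 to 0.088 for RAD51C, from -0.026 to 0.12 for XRCC3, from -0.11 to 0.041 for RAD54L, from -0.094 to 0.034 for DCLRE1C, from -0.094 to 0.037 for NHEJ1, from -0.035 to 0.012 for FANCD2, from -0.077 to 0.024 for XPC and from -0.034 to 0.12 for ERCC1. The other 25 genes had the same sign throughout. Ranks of the 43 genes by TPM and by CPM per exon length were the same.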
